A study of Mus musculus with 2 samples.

Results

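The clustered protocadherin genes are 57 protein-coding genes on mouse chromosome 18, out of 21853 protein-coding genes in the GENCODE annotation used. They were taken as every such gene on that chromosome whose symbol starts with Pcdha, Pcdhb, Pcdhga, Pcdhgb or Pcdhgc and ends in a number. No measured value is part of this rule, though earlier results of these data were known when the genes were chosen. They comprise 12 alpha genes, 22 beta genes, 12 gamma-a genes, 6 gamma-b genes and 5 C-type genes (Pcdhac1 and Pcdhac2 at the end of the alpha array, Pcdhgc3, Pcdhgc4 and Pcdhgc5 at the end of the gamma array). All lie on the plus strand between positions 36930184 and 37841873 of GRCm38, a span of 911.69 kb. The annotation gives the symbol Pcdha11 to 2 records, ENSMUSG00000007440 and ENSMUSG00000102206, and both are kept and named by identifier.

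Clustered protocadherins are cadherin-family adhesion proteins that recognise copies of themselves on neighbouring cells. Each alpha and gamma gene has a large first exon of its own, with its own promoter, that is spliced to constant exons shared along the array, while the beta genes have no shared constant exons. In neurons a cell uses only some of these promoters, chosen largely at random, which gives each cell a surface identity. The promoter choice involves the DNA-binding protein CTCF, the ring complex cohesin, and looping of a promoter to a distant enhancer, and promoters not chosen are kept silent by DNA methylation and repressive chromatin. The C-type genes are known for more regular use than the others.

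DNase-seq, which maps open chromatin by cutting of nuclear DNA with the enzyme DNase I, was done on adrenal gland tissue of male adult B6CASTF1/J mice aged 18 to 20 months. By their strain name these mice are F1 hybrids of the strains C57BL/6J and CAST/EiJ, and the labels give no treatment or other genotype. There is 1 group with 2 libraries, biological replicates 1 and 2, so the design has no comparison between conditions and no test was made. The labels give separate tissue samples but 1 donor entry, so the spread between the libraries measures only these samples and may be technical.

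Replicate 1 listed 98630 peaks and 228557 footprints, and replicate 2 listed 118249 peaks and 273271 footprints. A peak is a stretch of raised cutting. Its height is a depth-normalised signal given by the authors, without a unit. In each library every height was a whole number of equal steps, and the median height was 135 steps in replicate 1 and 100 steps in replicate 2, with median heights of 0.717 and 0.750. A footprint is a short stretch inside open DNA that was protected from cutting. Of marker genes of cell types, 6 of 9 adrenal cortex markers and 3 of 9 chromaffin markers had a promoter peak in both libraries. So did 9 of 10 neuron, 4 of 6 Schwann cell, 4 of 5 endothelial and 4 of 5 fibroblast or mural cell markers. Over all protein-coding genes the share was 64.5%, so these counts do not measure cell content. The files do not say which cell type an open promoter comes from, and in bulk tissue fewer cells with an open promoter and less opening per cell cannot be told apart.

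Most clustered protocadherin promoters had at most a low peak in the adrenal gland. A promoter was called open where a peak shared by both libraries lay within 1 kb of an annotated start of a protein-coding transcript. By that rule 18 of the 57 genes (31.6%) were open, against 64.5% of all protein-coding genes and 70.6% of those on chromosome 18. The 18 genes were Pcdhac1, Pcdhac2 and Pcdhgc3 of the C-type, Pcdhb3, Pcdhb7, Pcdhb8, Pcdhb14, Pcdhb16, Pcdhb17, Pcdhb18, Pcdhb21 and Pcdhb22 of the beta genes, Pcdhgb4, Pcdhgb5, Pcdhgb6 and Pcdhgb7, and Pcdhga11 and Pcdhga12. None of the 12 alpha genes was open in both libraries, against 9 of 22 beta, 2 of 12 gamma-a, 4 of 6 gamma-b and 3 of 5 C-type genes. The other 39 genes divided into 20 with a peak in replicate 2 alone, 1 with a peak in replicate 1 alone and 18 with none listed.

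The libraries differed in how many of these promoters they listed. Replicate 1 listed a peak near 19 of the 57 genes (33.3%), against 66.6% of all protein-coding genes. Replicate 2 listed one near 38 (66.7%), against 67.3% of all genes, so in that library the share was close to the background. A peak in replicate 2 alone was seen at 20 members (35.1%) and at 2.58% of all genes, and a peak in replicate 1 alone at 1 member (1.75%) and at 1.82% of all genes. Among all genes with a replicate 2 height under 1, 23.7% had no replicate 1 peak, against 20 of 34 members (58.8%). In the other direction, among all genes with a replicate 1 height under 1, 17.4% had no replicate 2 peak, against 1 of 14 members (7.14%). The authors' false discovery rate moved with this. At 16 of the 18 open members the lowest rate near the start was smaller in replicate 2, with medians of 0.00231 in replicate 1 and 2.12e-07 in replicate 2. This was so at 216 of 361 open genes of chromosome 18 (59.8%). Among the 62 of these that are not members and had a mean height under 1.5, it was so at 36 (58.1%), with medians of 4.79e-06 and 1.13e-07. The part of detection in the replicate 2-only peaks was not tested.

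**Figure D1:**
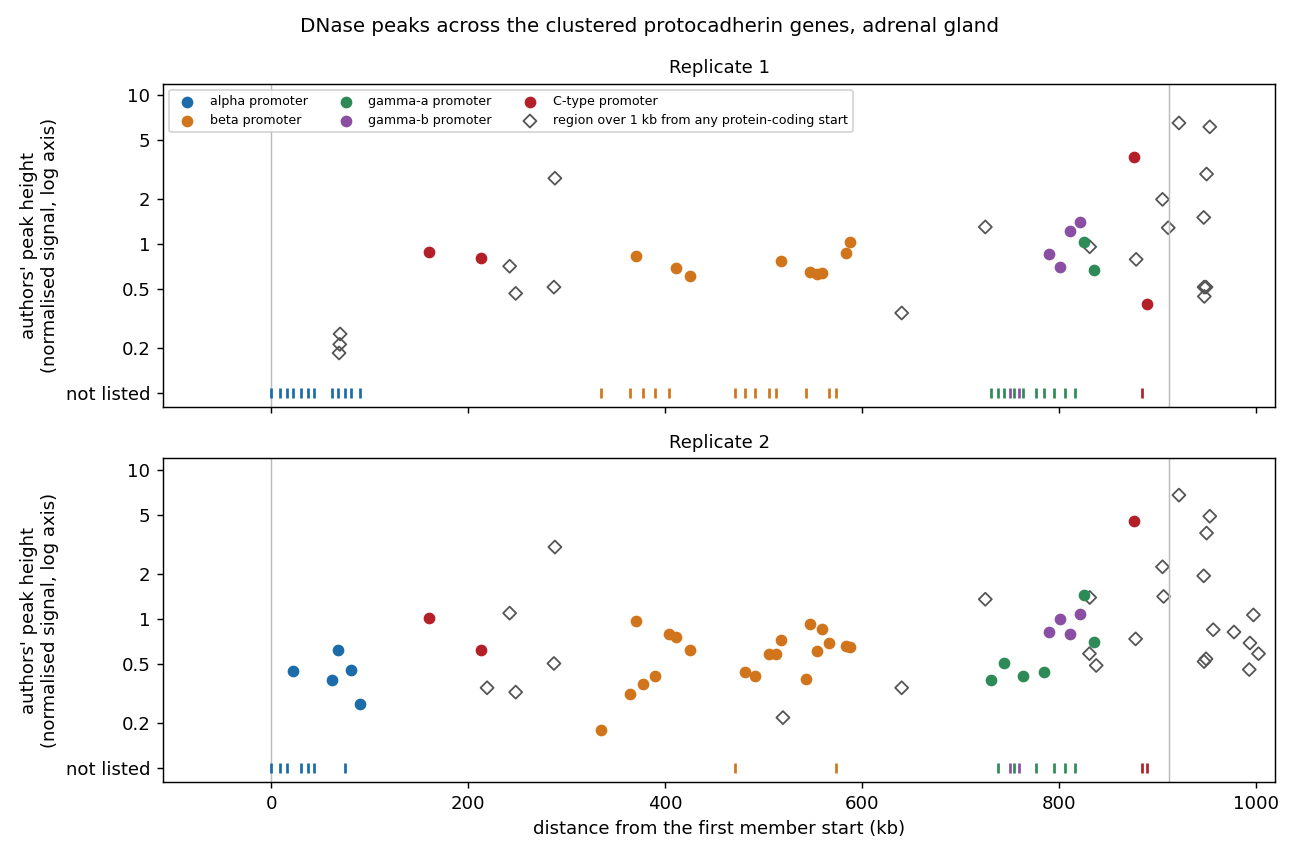
Authors' peak height (normalised signal, log axis) against distance in kb from the first member start, for replicate 1 (top) and replicate 2 (bottom). Filled points are member promoters by class, ticks at the bottom are members with no peak listed, diamonds are peaks more than 1 kb from any protein-coding start, and grey lines mark the ends of the cluster. The 12 alpha promoters are all unlisted in replicate 1, and Pcdhgc3 is the highest member promoter in both libraries.

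The open members were low, with 1 exception. Their mean heights over both libraries had a median of 0.814, against 3.91 over the 14100 genes open in both libraries, and 1 of the 18, Pcdhgc3, lay above the all-gene median. The libraries gave similar heights to the open members as a set, since the median log2 ratio of replicate 2 over replicate 1 was 0.04, with 10 of 18 higher in replicate 2, against -0.05 over all open genes. In the order of their means, 15 of 17 neighbouring pairs differed by less than the larger SD of the pair. The exceptions were Pcdhgc3 with Pcdhgb7, and Pcdhga12 with Pcdhb17.

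**Figure D2:**
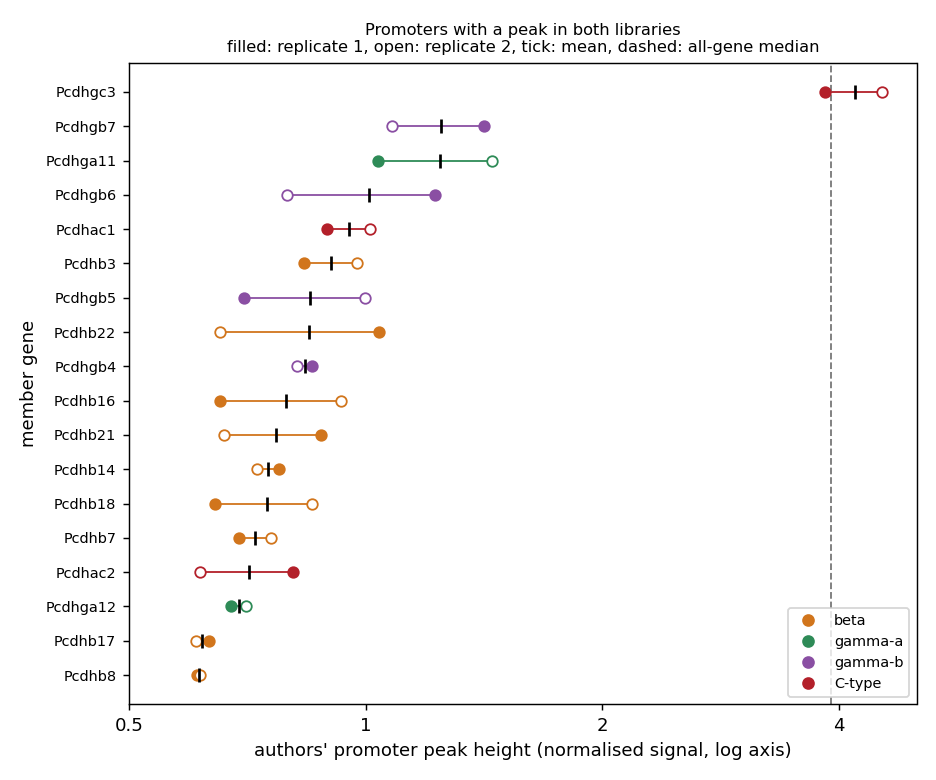
Authors' promoter peak height (normalised signal, log axis) of the 18 members open in both libraries, with replicate 1 filled, replicate 2 open, the mean as a tick and the class as colour. The dashed line is the all-gene median of 3.91. The points of Pcdhgc3 lie on both sides of it, and those of the other 17 lie to its left.

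The C-type genes held the highest promoter and also a promoter with no peak. Pcdhgc3, the first C-type gene of the gamma array, had a height of 3.84 in replicate 1 and 4.54 in replicate 2, a mean of 4.19 ± 0.494 (SD, n = 2). These heights are 723 and 605 steps, and the mean stood at percentile 53.9 of all open genes. The peak ran over chr18:37806201-37806480 in replicate 1 and chr18:37806161-37806440 in replicate 2, across the start at 37806410. Pcdhgc3 thus had a promoter of ordinary height for this tissue, and its lower library was higher than the higher library of every other member.

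Pcdhac1, the first C-type gene of the alpha array, had heights of 0.892 and 1.01, a mean of 0.952 ± 0.0852 (SD, n = 2), in a peak that covered its start at 37090013. Pcdhac2, the last variable gene before the alpha constant exons, had heights of 0.807 and 0.615, a mean of 0.711 ± 0.136 (SD, n = 2). The Pcdhac2 region was broad for a member: it covered 1260 bp from 37143441 to 37144700, mostly downstream of the start at 37143503 and inside the first exon, against a median of 166 bp over the shared regions at member starts. Pcdhgc4 had no peak listed within 1 kb of a start in either library and no position under a false discovery rate of 0.05. Pcdhgc5 had 1 peak in replicate 1 alone, at chr18:37820401-37820520 inside the gene, with a height of 0.398 (75 steps). Its centre lay 894.5 bp downstream of the nearest start, so it is near the limit of the window. The lowest false discovery rate there was 2.22e-23, far lower than at open members of greater height such as Pcdhgb7 (1.08e-05 in replicate 1), and replicate 2 had no position listed under 0.05 there.

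The alpha genes other than the C-type had the fewest open promoters. In replicate 1 no alpha promoter had a peak. In replicate 2 there were 5, at heights of 0.622 for Pcdha9, 0.457 for Pcdha11 (ENSMUSG00000102206), 0.450 for Pcdha4, 0.390 for Pcdha8 and 0.270 for Pcdha12. At Pcdha9 and Pcdha11 the centre was upstream of the start, at -89.5 and -99.5 bp. At Pcdha4, Pcdha8 and Pcdha12 it was 574, 509.5 and 532.5 bp downstream, within the large first exon rather than at the start. The remaining 7, Pcdha1, Pcdha2, Pcdha3, Pcdha5, Pcdha6, Pcdha7 and the other Pcdha11 record, had no peak listed in either library. The alpha promoters also had the lowest class median of sequence uniqueness. A median of 88.6% of the 32-base words within 1 kb of their starts occur once in the reference. The median was 93.9% over all members and 99.2% over chromosome 18 genes. The gamma-b genes were close to the alpha genes, at 89.3%, and 4 of 6 of them were open. Of all members Pcdha7 was lowest at 73.7%. The part of sequence uniqueness in the alpha counts was not tested.

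Beta genes, which carry their coding sequence in a single exon, had the most open promoters by number. The highest was Pcdhb3, with heights of 0.834 and 0.975 and a mean of 0.904 ± 0.1 (SD, n = 2). Pcdhb22, the last beta gene, had heights of 1.04 and 0.652, at the later of its annotated starts. Pcdhb16 had 0.653 and 0.930. At 4 of the 9 open beta genes replicate 1 was the higher library, namely Pcdhb14, Pcdhb17, Pcdhb21 and Pcdhb22, so neither library was higher throughout.

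The other open beta genes were lower and close to each other. Pcdhb21 had heights of 0.876 and 0.660, Pcdhb14 of 0.775 and 0.727, and Pcdhb18 of 0.642 and 0.855. Pcdhb7 had 0.690 and 0.757, Pcdhb17 had 0.632 and 0.607, and Pcdhb8 had 0.611 and 0.615. In the order of mean heights from Pcdhb3 to Pcdhb8, 7 of 8 neighbouring pairs differed by less than the larger of their SDs, the exception being Pcdhb7 and Pcdhb17. Replicate 2 added a peak at 11 more beta genes, from 0.180 at Pcdhb1 to 0.795 at Pcdhb6, so that 20 of 22 had a peak in that library. Pcdhb9 and Pcdhb20 had none in either.

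The gamma genes were open in the later stretch of their array. From Pcdhga1 to Pcdhga7 in genome order, 0 of 9 gamma-a and gamma-b genes were open in both libraries, and 4 had a peak in replicate 2. From Pcdhgb4 to Pcdhga12, 6 of 9 were open in both. This division was noticed after the values were seen and is a description. The open gamma-b genes were Pcdhgb7 with heights of 1.41 and 1.08 (mean 1.25 ± 0.235, SD, n = 2), Pcdhgb6 with 1.23 and 0.795 (1.01 ± 0.305), Pcdhgb5 with 0.701 and 0.997, and Pcdhgb4 with 0.855 and 0.817. After Pcdhgc3, Pcdhgb7 and Pcdhga11 were the highest members, and they differed by less than their spread.

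Of the gamma-a genes, Pcdhga11 had heights of 1.04 and 1.45 (mean 1.24 ± 0.291, SD, n = 2), and Pcdhga12 had 0.674 and 0.705 in a peak centred 341.5 and 340.5 bp downstream of its start. Replicate 2 alone listed peaks at Pcdhga1 (0.390), Pcdhga3 (0.502), Pcdhga5 (0.412) and Pcdhga7 (0.442). In the later stretch the unlisted genes Pcdhga8, Pcdhga9 and Pcdhga10 alternate along the chromosome with the open genes Pcdhgb4 to Pcdhgb7. Pcdhga2, Pcdhga4, Pcdhga6, Pcdhgb1 and Pcdhgb2 also had no peak in either library. Over all classes, 16 of the 18 members with no peak had no position under a false discovery rate of 0.05 within 1 kb in either library, the exceptions being Pcdhga2 and Pcdhga4 in replicate 2.

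Pcdhgb8 lies between Pcdhga11 and Pcdhga12 and is annotated as a polymorphic pseudogene, so it is not a member. A shared region at chr18:37761581-37761760 lay just before its start, with heights of 0.961 and 1.39 and a mean of 1.18 ± 0.307 (SD, n = 2). It was thus within the range of the open gamma members.

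Most open member promoters had a common shape: a narrow peak just upstream of the start. The peak centre was upstream of the start in both libraries at 15 of 18 open members, against 59.8% of all open genes, the others being Pcdhac2, Pcdhb17 and Pcdhga12. Relative to the start, the centre had a median position of -42.5 bp (interquartile range -58.5 to -20), against -26.5 bp over all open genes (-81.5 to 19.5). The shared regions had a median width of 166 bp, against 280 bp over all shared promoter regions. Exceptions in width were Pcdhgc3, the highest member, with 2 shared regions covering 940 bp in all, and Pcdhac2 with 1260 bp. Over all listed peaks the median width was 180 bp in each library, at median heights of 0.717 and 0.750. The narrow width is thus not particular to members, and promoters of like height were not compared. All 19 regions near open members were near the starts of no other protein-coding gene.

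Footprints were present near the start of 18 of 57 members in both libraries (31.6%), against 63.1% of all genes. These were the same 18 genes that were open, so this count repeats the open call. Replicate 1 had them at 19 members and replicate 2 at 34. The open members had a median of 3 footprints in replicate 1 and 2 in replicate 2, against 7 and 7 over all open genes. Their shared regions were also shorter in all per gene (median 163 against 480 bp) and lower (median height 0.814 against 3.91). Footprint counts were not compared at like width or height.

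The sequence around these starts is poor in G and C. In the 300 bp window from 250 bp before to 50 bp after the first start, members had a median of 39.7% G and C, against 55.3% over all genes. The ratio of observed to expected CpG, which is near 1 where CpG is not depleted, had a median of 0.521 against 0.537. The share of open promoters rises steeply with G and C over all genes, from 3.74% under 35% to 93.3% at 60% or more, so the count of open members was also read within ranges of composition.

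Under 35% G and C, 2 of 6 members (33.3%) were open, against 3.74% of all genes. Those 2 were Pcdhb22 and Pcdhga12, whose peaks lie downstream of the 300 bp window. The composition measured there is thus not that of their open stretch. From 35 to 40%, 5 of 24 members (20.8%) were open, against 11.5% of all genes. From 40 to 45%, 6 of 15 (40%) were open, against 26.4%. From 45 to 50% the order was the other way, with 2 of 8 members (25%) against 43.7%. Every replicate 2 peak, shared or not, was also counted. Under 35%, 3 of 6 members had one, against 5.2% of all genes. From 35 to 40% it was 14 of 24 against 14.5%, and from 40 to 45% 14 of 15 against 31.5%. From 45 to 50% it was 4 of 8 against 48.2%, so the reversed order was not seen in that library. The lower share of open members over all genes was therefore not seen within the ranges under 45%, which hold 45 of the 57 members. By CpG ratio it was seen in the upper 3 of 4 ranges: from 0.25 to 0.5, 4 of 20 members (20%) were open against 52.8% of all genes, from 0.5 to 0.75, 8 of 25 members (32%) were open against 88.6% of all genes, and at 0.75 or more, 4 of 9 (44.4%) against 96.9%. Under 0.25 the order was the other way, with 2 of 3 members (66.7%) against 19.1%. These 2 were again Pcdhb22 and Pcdhga12, with peaks outside the window. Composition and openness were set side by side only, and the part of either measure in the members' count was not tested.

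**Figure D3:**
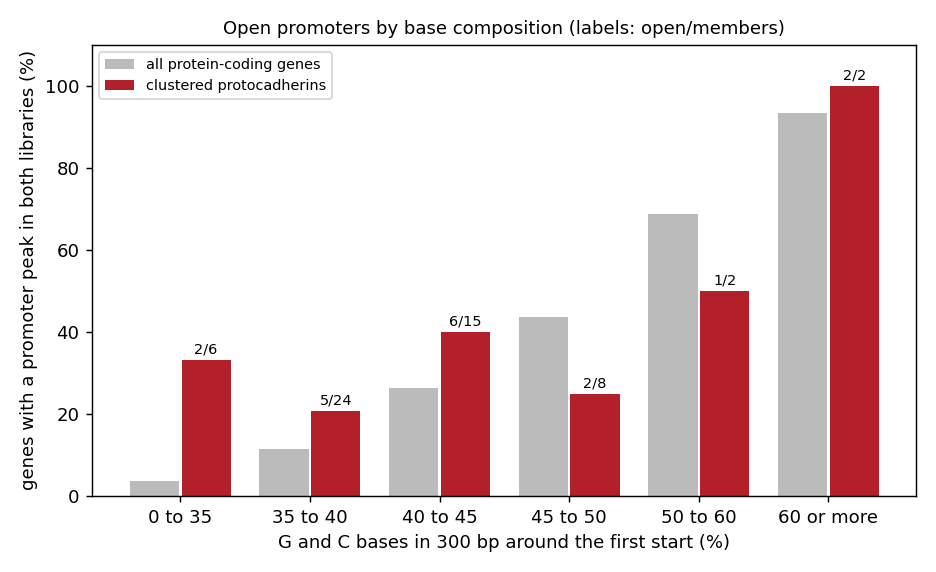
Percent of genes with a promoter peak in both libraries by G and C content of the 300 bp window at the first start, for all protein-coding genes (grey) and the clustered protocadherins (red, with open genes over members in the range). Under 45% the red bars are higher than the grey ones, from 45 to 60% they are lower, and the ranges from 50% on hold 2 members each. The 2 open members under 35% have their peaks outside the window.

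Promoters of clustered protocadherins are known to share a conserved element with a CGCT core, which CTCF is known to bind. It is known to be missing from Pcdhac2, Pcdhb1, Pcdhgc4 and Pcdhgc5. The letters CGCTG were searched in the reference on the gene's own strand in the 150 bp before the first start. They were present at 41 of 57 members (71.9%), against 14.9% of all protein-coding genes, and at none of the 4 genes just named. By class they were present at 5 of 12 alpha, 17 of 22 beta, 11 of 12 gamma-a, 6 of 6 gamma-b and 2 of 5 C-type genes. Those 4 are among 16 members without the letters in that stretch. On either strand in the 300 bp window, 82.5% of members and 43.4% of all genes held them. All 5 C-type genes held them on the opposite strand, so at Pcdhac2, Pcdhgc4 and Pcdhgc5 the absence holds for the gene's own strand only. Among 8-base words, GTGGCGCT was in 17 of 57 member windows on the gene's strand, all of them beta genes (17 of 22), against 0.76% of all genes. The overlapping words GGTGGCGC (17 beta genes) and TGGCGCTG (16 beta genes and 1 C-type gene) had the same count of 17, against 1.28% and 1.06% of all genes. These words overlap each other and CGCTG, so the counts are not independent. They were picked as the most widespread words of their length in these same windows, with ties going to words rarer over all genes. Their excess over all genes thus follows in part from that choice. Longer stretches are not printed here.

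Most open members had a footprint on this element. Of the 18 open members 14 had CGCTG in the searched stretch, and 13 of these had a footprint over it in both libraries (92.9%), against 28.6% of all open genes with the letters in that place. The remaining one, Pcdhgc3, had it in replicate 2 alone. These shares rest on unlike sets. The letters lay inside a replicate 1 peak at all 14 members, but at no more than 2205 of the 2816 open genes with them. The share among genes with the letters inside a peak was not computed. In each library the peak centre lay within 50 bp of CGCTG at all 14, at a median of 11.25 bp downstream of it in replicate 1 and 6.5 bp in replicate 2. Since members open near the start have narrow peaks, and the searched stretch is where those peaks lie, closeness to the letters partly follows from closeness to the start.

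Counting members that were not open in both libraries as well, 13 members had a footprint over the letters in replicate 1 and 23 in replicate 2. Of members with CGCTG, 14 of 41 (34.1%) were open in both libraries, and of those without it, 4 of 16 (25%). Over all protein-coding genes the shares were 86.5% with the letters and 60.7% without. The 4 without it were Pcdhac2, Pcdhb17, Pcdhb22 and Pcdhga12, which include the 3 members whose peak centre was downstream of the start. At Pcdhb22 the peak lies at a later start than the one searched. At Pcdhb17 and Pcdhga12 it lies downstream of the searched stretch, and at Pcdhac2 mostly so. A member without the letters in that stretch may hold the element elsewhere or with other letters. The 25% is thus not a share among members lacking the element. Of the gamma-a genes 11 of 12 had CGCTG, and 1 of those 11, Pcdhga11, was open in both libraries.

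**Figure D4:**
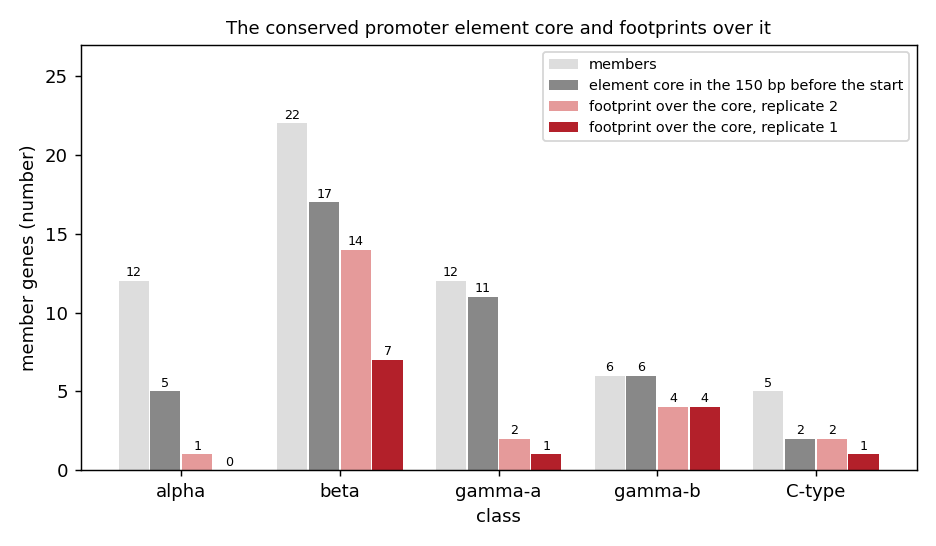
Number of members per class (light grey), with the core letters of the conserved element in the 150 bp before the start (dark grey), and with a footprint over them in replicate 2 (pink) and replicate 1 (red). The beta genes have 17 cores with 14 and 7 footprints, and the gamma-a genes have 11 cores with 2 and 1.

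A general CTCF core gave another picture. It was searched on both strands as CC, 3 bases of any kind, AG, 2 bases of any kind, and GGC. A match can overlap CGCTG. In the 300 bp window 4 of 57 members (7.02%) held a match, against 9.58% of all genes. These were Pcdha4, Pcdhac1, Pcdhb1 and Pcdhb15, each on the gene's own strand. Over all genes 54.7% of 2242 matches were on the gene's own strand, and the 4 matches of members are a description only. Within shared promoter regions, 1 of 18 open members (5.56%), Pcdhac1, held a match, against 28.4% of open genes, whose shared regions are wider (median 480 bp in all per gene, against 163 bp). The match at Pcdhac1, at -72 bp and so next to its CGCTG at -61 bp, was under a footprint in both libraries, as was one at 12.6% of all open genes. For the other members it can be said only that these letters are not in the window.

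The first exon of each member is at least 2 kb long, and little of it was open. In both libraries 3 of 57 members had a peak in the first exon more than 1 kb from the gene's own starts, against 0.732% of all genes and 18.1% of the 623 genes with a first exon of 2 kb or more. At Pcdhb17 and Pcdhb21 this peak is the promoter peak of the next gene, Pcdhb18 and Pcdhb22. At Pcdhgc3 the libraries listed different positions, 37808790 to 37808929 at a height of 0.791 in replicate 1 and 37808276 to 37808320 at 0.735 in replicate 2.

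Regions more than 1 kb from any protein-coding start were sparse inside the cluster and frequent just after it. Within the 911.69 kb, 8 such regions were shared by both libraries, 8.77 per Mb, against 14.98 per Mb over chromosome 18 and 15.80 per Mb over all chromosomes. The alpha span held 2, the gap from alpha to beta 2, the gap from beta to gamma 2, the gamma span 2 and the beta span of 259.542 kb none. Between the first alpha start and Pcdhac1, 159.829 kb, there was also none. With 100 kb added to each side there were 14, of which 6 lay downstream and none upstream.

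The highest distal region inside the cluster lay in the gap after the alpha genes, at chr18:37218281-37218460. Its heights were 2.78 and 3.04, a mean of 2.91 ± 0.190 (SD, n = 2), at percentile 89.8 of shared distal regions. About 1 kb before it, a lower region at chr18:37217201-37217540 had heights of 0.515 and 0.502 and held a CTCF match on the minus strand, opposite to the strand of the members, under a footprint in both libraries. A neuronal enhancer with CTCF sites is known downstream of the alpha constant exons; whether these regions are that element was not tested. Both lie in an intron of Gm42416, an annotated read-through record that spans most of the cluster.

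The next highest was at chr18:37835441-37835820, in an intron shared by 21 members of the gamma array, with heights of 2.00 and 2.24 (mean 2.12 ± 0.170, SD, n = 2). It held a CTCF match on the plus strand, under a footprint in replicate 2 alone. The region at chr18:37655521-37655720, 6172 bp before Pcdhga1, had heights of 1.31 and 1.36 (1.33 ± 0.0363). The fourth was the region before Pcdhgb8 given above. The fifth, at chr18:37172301-37172460 in an intron shared by 14 members of the alpha array, had heights of 0.711 and 1.09 (0.903 ± 0.271). The first 4 were each higher in both libraries than the median open member promoter, at 0.820 in replicate 1 and 0.806 in replicate 2.

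Higher regions lay downstream, in introns of Diaph1, a formin gene on the minus strand that ends just after the cluster. The one at chr18:37852241-37852420 had heights of 6.53 and 6.80 (mean 6.67 ± 0.192, SD, n = 2), at percentile 99.3 of shared distal regions. The one at chr18:37883561-37883760 had 6.15 and 4.90 (5.53 ± 0.879), at percentile 98.5. Each held a CTCF match on the minus strand under a footprint in both libraries. Between them lay a region without a match, at chr18:37880281-37880480, with 2.96 and 3.78 (3.37 ± 0.578). These 3 were higher in both libraries than every member promoter other than Pcdhgc3. Over the cluster with its flanks, 4 of 14 regions (28.6%) held a CTCF match, against 27.6% of shared distal regions on all chromosomes, so the share was close to the background. None of the shared regions inside the cluster held a match to the long consensus of RE1, the site of the neuronal gene repressor REST. Such matches were rare everywhere, with 183 in the 43066 shared distal regions of all chromosomes. Their absence from 8 regions therefore says little.

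Genes around and within the cluster had high promoters beside these low ones. Taf7, which codes for a subunit of the general transcription factor TFIID and lies on the minus strand between the beta and gamma genes, had heights of 5.68 and 6.43 (mean 6.05 ± 0.528, SD, n = 2). Slc25a2, a mitochondrial carrier gene next to it, had no peak listed. Zmat2 before the cluster had a mean of 6.62 ± 0.136 and Diaph1 after it one of 6.90 ± 1.53. The low heights of the members thus stood between higher promoters on both sides and next to one inside.

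Other gene sets gave other counts, read here beside the 64.5% of all protein-coding genes that were open. Of the 12 non-clustered protocadherins, which are single genes with their own promoters, 9 (75%) were open in both libraries, and the highest means were 4.06 ± 0.0753 at Pcdh17, 3.46 ± 0.248 at Pcdh1 and 3.45 ± 0.412 at Pcdh10. Genes for factors of the clustered promoters' known regulation were open throughout. Of the architecture and loop factors 11 of 11 were open, with Stag1, Smc3 and Wapl highest (10.2, 8.85 and 6.46), and Ctcf at 4.13. Of the silencing factors 12 of 12 were open, with Cbx3, Setdb1 and Ehmt1 highest (9.81, 6.70 and 6.42). These lists had a median G and C of 65.3% and 67.3%, and 93.3% of all genes at 60% or more were open. Their full counts were therefore near the share of genes of like composition. The non-clustered protocadherins had a median of 62.5%, so their 75% was not above the share of genes of like composition. Among other clustered families, 1 of 132 olfactory receptor genes on chromosome 9 (0.758%), 43 of 54 histone genes of the chromosome 13 cluster (79.6%) and 26 of 39 Hox genes (66.7%) were open. By this call the clustered protocadherins at 31.6% lay between the olfactory receptors and the histone and Hox genes. These families differ in composition, with a median G and C of 36% for the olfactory receptors, 45.3% for the histone genes and 55.3% for the Hox genes. The clustered protocadherins had 39.7%, and the families were not compared at like composition. In replicate 2 taken by itself the clustered protocadherins had a peak at the same share as the Hox genes, 66.7% each (38 of 57 and 26 of 39).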

How the data were processed

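The authors called peaks and footprints and computed false discovery rates per library on mm10, per the labels and the file index; their aligner and callers: not given in the sources used here. The height in the authors' deposited peak lists is a signal normalised for depth, used as deposited, with 100% of heights within 0.05 of a whole number of steps. The longer of 2 lists per library was used. The deposited false discovery rates (q-values, listed by the authors under 0.05) and footprints were read near the starts. The score in the deposited footprint lists is constant and was not used. Reads were not analysed here, and how the CAST alleles aligned was not examined.

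Coordinates are 1-based on GRCm38 with GENCODE vM21. Peaks overlapping by at least 1 bp between libraries were merged into shared regions. Each gene's height is that of its highest peak within 1 kb of a start of a protein-coding transcript, and an absent peak is called not listed. Genes were named by a rule: C-type genes in full, up to 15 other open members by height, up to 5 members with a peak in 1 library, and the 5 highest distal regions of the cluster. Further members and the Diaph1 regions were named after their values were seen. The members and lists were chosen with earlier results of these data known. Python 3.11.15 and numpy 2.4.6 were used, and open calls and word counts were tested on simulated data. Alternatives were the shorter list, other windows, starts, overlaps and heights, another CTCF core, and each library alone.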

Additional observations from a re-analysis of the deposited data

How the results depend on the processing

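Of 77 values recomputed under alternatives, 56 left the count within 1.5 times, or the median within 1 SD between the libraries, of the value reported. Windows of 500 bp and 2 kb, and the gene's 5' end alone, each kept the same 18 open members. With the shorter peak list 6 members were open (10.5% against 59.9% of all genes), of which 2 were beta and 1 gamma-a or gamma-b, their median height was 0.928, 1 had a first-exon peak, and 9 distal regions were shared. With peaks above the median height 7 members were open (12.3% against 58.2%), 1 of them beta, and 8 distal regions were shared, as were 8 without the flanks. The stricter CTCF core left 0 members with a match. The median log2 ratio was -0.10 with the shorter list.

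With 1 library alone, members with a peak numbered 19 to 38, alpha 0 to 5, beta 9 to 20, gamma 6 to 10 and C-type 3 to 4. The low value came from replicate 1 except for C-type genes, whose low value came from replicate 2. Members with a CTCF match numbered 1 to 6, footprints 19 to 34, first-exon peaks 5 in each, distal regions 21 to 26, and the median height was 0.615 (replicate 2) to 0.807 (replicate 1). No paired analysis was possible because there is 1 group. The lowest member peaks were 75 steps in replicate 1 and 24 in replicate 2, and the part of detection in the counts was not tested.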
